A study of Sus scrofa with 8 samples.

Results

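The S100A genes encode small calcium-binding proteins, and 10 of them were followed here in pig liver before and after a steatotic diet. They are S100A1, S100A4, S100A6, S100A8, S100A9, S100A10, S100A11, S100A12, S100A13 and S100A16, chosen by gene symbol from the 18103 genes and new transcripts with expression values. Hepatic RNA of male Landrace x Large White pigs was sequenced in 8 libraries, each a pool of RNA from 2 pigs. The 4 pools of the initial state came from animals of 4 months on the control diet, sampled by biopsy. The 4 pools of steatosis came from the same animals at 6 months, after 2 months on a diet rich in saturated fat, cholesterol, cholate and fructose and poor in methionine and choline, sampled after euthanasia. Diet, age and way of sampling changed together, so their effects cannot be told apart. A replicate is a pool, and the SD given below is between pools and not between pigs, as is the spread behind each p-value.

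S100 proteins carry EF-hand motifs and mostly act as dimers that bind partner proteins when calcium rises. S100A10, S100A11 and S100A6 are found inside many cell types and bind annexins, proteins that attach to membranes and take part in their repair and traffic. S100A8 and S100A9 form calprotectin, an abundant cytosolic protein of neutrophils that freshly recruited monocytes also contain. Together with S100A12 they act outside the cell as alarm signals on TLR4 and on the receptor AGER. In liver, calprotectin is known from recruited myeloid cells, and S100A4 and S100A6 from mesenchymal and bile duct cells.

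All 10 genes lie on chromosome 4 of Sscrofa11.1, within 1265492 bases. The group from S100A1 (96007026 to 96012305) to S100A9 (96236114 to 96238989) is separated by 994843 bases from S100A11 (97233833 to 97239081) and its neighbour S100A10 (97261752 to 97272517). S100A1 and S100A13 (96007280 to 96025120) overlap by 5026 bases, and since counting by strand is not given in the sources used here, reads of the shared stretch could be assigned to either gene.

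Values are FPKM, fragments scaled to transcript length and to the mapped fragments of the library, as deposited. The states were set against each other by limma, on log2(FPKM + 0.1), for the 13175 genes that reached 0.3 FPKM in 4 or more libraries. All 10 members did so. A gene was called higher or lower if its Benjamini-Hochberg adjusted p stayed below 0.01 and its log2 fold change went beyond 1. Fold changes on this scale understate the change of genes of low FPKM. By this rule 2 members, S100A11 and S100A6, were higher in steatosis and 0 were lower, where 6.01% of all tested genes were called higher and 0.334% lower. With no limit on the fold change, 5 members were higher at an adjusted p under 0.05 (26.7% of all tested genes) and 0 lower (2.28%). In 4 members every steatosis pool lay above every initial pool, which held for 29.6% of all tested genes, and in 0 members was the order the opposite (2.53%). The median log2 fold change was 0.49 over the members and 0.25 over all tested genes, and the members are to be read against that shift. In bulk tissue, more or fewer cells of a type and more or less RNA per cell cannot be told apart.

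Among the libraries, pool 1 of the initial state stood apart. The summed FPKM of 9 skeletal muscle markers was 2854 there and from 0.89 to 21.4 in the other initial pools, and that of 9 stomach mucosa markers was 1525 against 5.81 to 29.1. In steatosis these sums were at most 0.39 and 6.54. The hepatocyte markers were abundant in all libraries, with ALB (albumin) between 33168 and 71003 FPKM. The calls of S100A11 and S100A6 were both kept without pool 1 of the initial state.

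**Figure D1:**
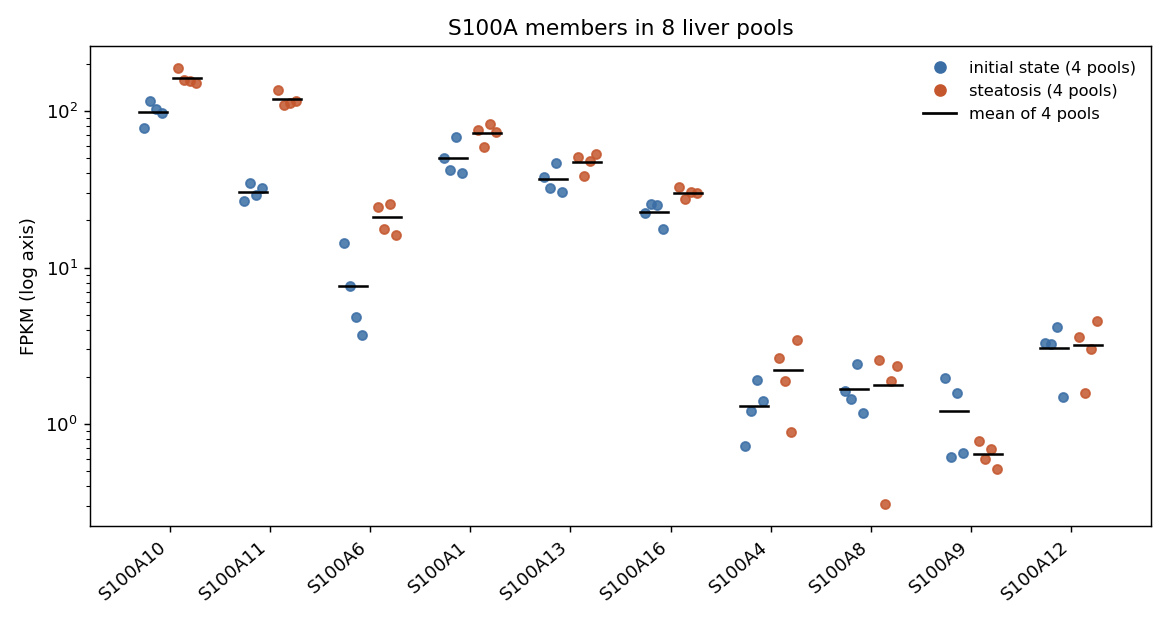
FPKM of the 10 S100A members (log axis) in the 4 initial pools and the 4 steatosis pools, one point per pool, with the mean as a line. The groups do not overlap for S100A10, S100A11, S100A6 and S100A16, and S100A8, S100A9, S100A12 and S100A4 lie below 5 FPKM in all pools.

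S100A11, a partner of ANXA1 that is found in most tissues, had the largest change of the 10. It had FPKM values of 26.8, 34.5, 28.9 and 32.1 in initial pools 1 to 4, against 136, 109, 113 and 116 in steatosis pools 1 to 4. The lowest steatosis pool was thus far above the highest initial pool, and within each state the pools stayed close together, with a coefficient of variation of 11.2% before and 10.3% after the diet. The mean rose from 30.6 ± 3.42 to 119 ± 12.2 FPKM (SD, n = 4 pools), and the fitted log2 difference was 1.95 with SE 0.11 (95% interval 1.71 to 2.2, limma adjusted p = 8.17e-06). The share of S100A11 in the summed FPKM of the 10 members went from 12.2% ± 1.85 to 25.7% ± 0.843, and in the order of levels it moved above S100A1 and S100A13. In the initial state its pools overlapped with those of S100A13, whereas in steatosis they lay above all pools of S100A1 and S100A13 and below all pools of S100A10.

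S100A10 was the most abundant member in both states. Unlike its relatives it does not need calcium, since its EF-hands have lost the ability to bind it, and it sits with ANXA2 in a complex at the plasma membrane that binds plasminogen and its activator. It had FPKM values of 78.4, 116, 103 and 96.6 in initial pools 1 to 4, against 189, 158, 155 and 152 in steatosis pools 1 to 4. The groups did not overlap, with pool 1 the lowest of the initial state and pool 1 the highest of steatosis. The mean was 98.7 ± 15.8 FPKM in the initial state and 164 ± 17.2 FPKM in steatosis (SD, n = 4 pools), and the fitted log2 difference was 0.74 with SE 0.13 (limma adjusted p = 0.00288). S100A10 thus passed the limit on the adjusted p but not that on the fold change. With median-ratio scaling, in which every library is divided by the median of its gene-wise ratios to the average of all libraries, the log2 fold change was 0.46 and the adjusted p 0.0298.

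S100A6, also called calcyclin, is expressed in fibroblasts, epithelia and other dividing cells and binds annexins and CACYBP. It had FPKM values of 14.3, 7.59, 4.84 and 3.70 in initial pools 1 to 4, against 24.5, 17.7, 25.5 and 16.2 in steatosis pools 1 to 4. The groups did not overlap, although the initial pools differed among themselves by nearly as much as the lowest steatosis pool differed from the lowest initial one, and the highest initial value was that of pool 1, the library with muscle and stomach transcripts. S100A6 rose from 7.61 ± 4.76 to 20.9 ± 4.70 FPKM (SD, n = 4 pools), and the fitted log2 difference was 1.61 with SE 0.36 (95% interval 0.81 to 2.42, limma adjusted p = 0.00953). The call lies close to its limit. Without pool 1 of the initial state the log2 fold change was 1.98 and the adjusted p 0.000819, and leaving out any other library gave an adjusted p from 0.0175 to 0.0284 with log2 fold changes from 1.34 to 1.73. With median-ratio scaling the values were 1.34 and 0.0263.

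S100A1, S100A13 and S100A16 had intermediate levels and smaller differences. S100A1, best known as a regulator of calcium handling in heart and skeletal muscle, had FPKM values of 50.3, 42.3, 68.2 and 40.4 in initial pools 1 to 4, against 76.1, 59.0, 82.2 and 73.7 in steatosis pools 1 to 4. Pool 3 of the initial state lay within the range of steatosis, and pool 1, for all its muscle transcripts, did not stand out. The log2 fold change, 0.55 with SE 0.17, had a limma adjusted p of 0.0360. S100A16, a widely expressed member that takes part in fat cell formation, had FPKM values of 22.4, 25.3, 25.2 and 17.7 in initial pools 1 to 4, against 32.7, 27.5, 30.4 and 29.9 in steatosis pools 1 to 4. The groups did not overlap, yet the gap between the nearest pools was small, and the log2 fold change, 0.42 with SE 0.13, had a limma adjusted p of 0.0318. S100A13, which helps to export FGF1 and IL1A, had FPKM values of 37.8, 32.1, 46.5 and 30.3 in initial pools 1 to 4, against 51.1, 38.3, 48.0 and 52.8 in steatosis pools 1 to 4. The highest initial pool exceeded the lowest steatosis pool, and the log2 fold change, 0.38 with SE 0.15, had a limma adjusted p of 0.0853. In all 4 pairs of pools with the same number these 3 genes were higher in steatosis, but the sources do not say that such pools hold the same pigs. Median-ratio scaling, which takes away the general shift, gave log2 fold changes of 0.28, 0.15 and 0.11 for S100A1, S100A16 and S100A13, with adjusted p of 0.267, 0.282 and 0.633.

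The alarm signals S100A8, S100A9 and S100A12 were scarce and none of them passed the test. By the spacing of low FPKM values in short genes, 1 fragment was worth about 0.158 FPKM for S100A8, 0.088 for S100A9 and 0.177 for S100A12, so their values rested on an estimated 2 to 16, 6 to 22 and 9 to 26 fragments per library. S100A11 had 209 to 1081 by the same estimate. S100A8 had FPKM values of 1.63, 1.45, 2.41 and 1.18 in initial pools 1 to 4, against 2.56, 0.31, 1.89 and 2.35 in steatosis pools 1 to 4. Of the steatosis pools, 3 lay in or just above the initial range and pool 2 lay far below it, at the level of about 2 fragments. The log2 fold change was -0.17 (95% interval -1.37 to 1.02, adjusted p = 0.827 from limma). It turned to 0.46 (adjusted p = 0.204) without pool 2 of steatosis and to 0.01 without pool 3 of the initial state.

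S100A9 had FPKM values of 1.97, 0.62, 1.59 and 0.65 in initial pools 1 to 4, against 0.78, 0.60, 0.69 and 0.52 in steatosis pools 1 to 4. Pools 1 and 3 of the initial state were above all the others, which lay close together whatever the state. The log2 fold change was -0.66 (95% interval -1.44 to 0.12, adjusted p = 0.179 from limma), and with single libraries left out it ranged from -0.90 without pool 2 of the initial state (adjusted p = 0.0817) to -0.39 without pool 1 of the initial state (adjusted p = 0.377). S100A12 had FPKM values of 3.28, 3.25, 4.15 and 1.49 in initial pools 1 to 4, against 3.59, 1.58, 3.01 and 4.57 in steatosis pools 1 to 4, and the ranges of both states were nearly the same. Its log2 fold change was 0.06 (95% interval -0.74 to 0.86, adjusted p = 0.915), and leaving out pool 4 of the initial state, pool 1 of steatosis or pool 4 of steatosis turned it to -0.24, -0.03 and -0.14, and median-ratio scaling to -0.20. At these depths the interval of S100A8 still contains a change of about 2-fold in both directions, and that of S100A9 a fall of that size. Such differences are therefore not excluded.

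S100A4, a binding partner of non-muscle myosin that marks fibroblasts and macrophages, had FPKM values of 0.72, 1.21, 1.92 and 1.4 in initial pools 1 to 4, against 2.66, 1.88, 0.89 and 3.45 in steatosis pools 1 to 4, from an estimated 6 to 32 fragments per library. Pool 3 of the initial state was the highest of its state, and pool 3 of steatosis was the lowest of its own. The log2 fold change, 0.64 with SE 0.40, had a limma adjusted p of 0.245 (95% interval -0.24 to 1.52), and with single libraries left out it ranged from 0.39 without pool 4 of steatosis (adjusted p = 0.510) and 0.40 without pool 1 of the initial state (adjusted p = 0.464) to 1.0 without pool 3 of steatosis (adjusted p = 0.0516).

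**Figure D2:**
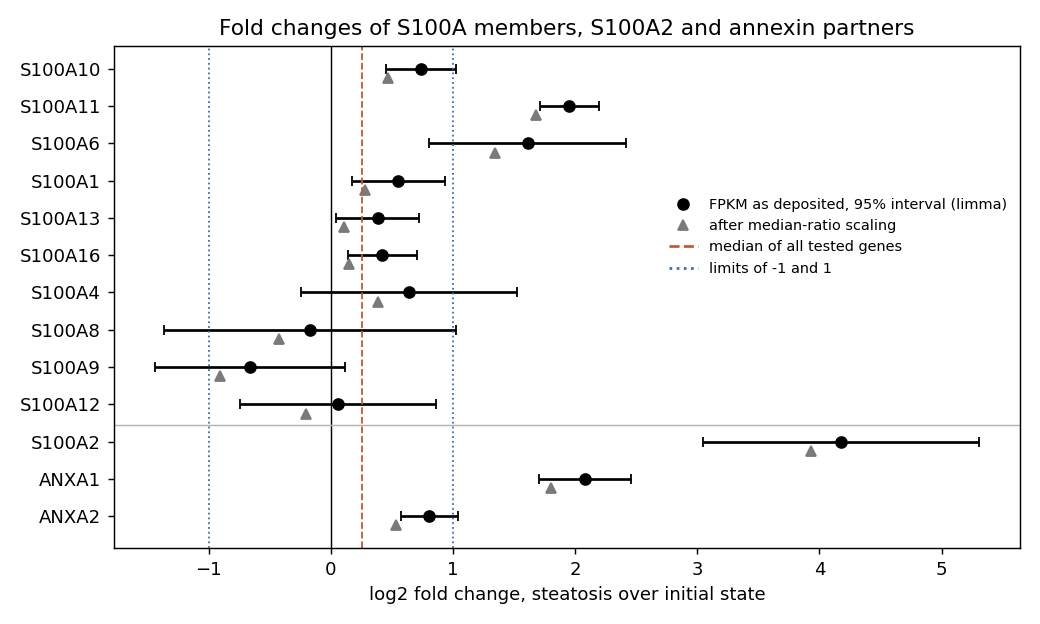
Log2 fold changes of steatosis over the initial state for the 10 S100A members and, below the line, S100A2, ANXA1 and ANXA2, with the 95% interval from limma (4 pools per group). Triangles give the value after median-ratio scaling, the dashed line is the median of all tested genes (0.25) and dotted lines mark -1 and 1. Among the members the intervals of S100A11, S100A6 and S100A10 lie above the dashed line, whereas those of S100A4, S100A8, S100A9 and S100A12 include 0.

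The summed FPKM of the 10 members was 254 ± 27.6 in the initial state and 461 ± 43.5 in steatosis (SD, n = 4 pools). The sums ranged from 225 to 287 and from 414 to 519 FPKM, without overlap. S100A10, S100A11 and S100A1 made up most of both sums, and the 3 alarm signals together with S100A4 contributed little. Within the initial state the ranges of S100A6, S100A12, S100A8, S100A4 and S100A9, the members of lowest mean, each overlapped with that of the next in order. In steatosis S100A6 lay above S100A12 in all pools, whereas the ranges of S100A12, S100A4 and S100A8 overlapped. S100A9 lay below all steatosis pools of S100A12 and S100A4 and overlapped only with S100A8.

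The known partners were then compared inside each library, where a ratio hardly depends on the scaling between libraries. ANXA1, an annexin that restrains inflammation, had FPKM values of 6.80, 8.14, 8.05 and 12.6 in initial pools 1 to 4, against 34.8, 40.4, 37.3 and 35.1 in steatosis pools 1 to 4. It rose by about the same factor as S100A11, with a log2 fold change of 2.08, SE 0.17 and limma adjusted p = 5.60e-05. The log2 ratio of S100A11 to ANXA1 was 1.80 ± 0.319 before and 1.68 ± 0.226 after the diet (SD, n = 4 pools, two-sided exact permutation p = 0.543, adjusted over 4 ratios 0.724). ANXA2 had FPKM values of 52.6, 45.6, 44.5 and 40.3 in initial pools 1 to 4, against 84.5, 79.4, 84.4 and 71.2 in steatosis pools 1 to 4. Like S100A10 it passed the limit on the adjusted p (0.000587 from limma) but not that on the fold change, with a log2 fold change of 0.81 (SE 0.10). The log2 ratio of S100A10 to ANXA2 was 1.10 ± 0.354 and 1.03 ± 0.124 (exact permutation p = 0.743, adjusted 0.743), and pool 1 of the initial state, at 0.58, was the lowest of all libraries. The log2 ratio of S100A8 to S100A9, both parts of calprotectin, went from 0.55 ± 0.581 to 1.03 ± 1.23 (exact permutation p = 0.486, adjusted 0.724), and that of S100A12 to S100A9 from 1.34 ± 0.642 to 2.06 ± 0.676 (exact permutation p = 0.229, adjusted 0.724). None of the 4 ratios passed the permutation test, and the low fragment numbers make the ratios to S100A9 imprecise.

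**Figure D3:**
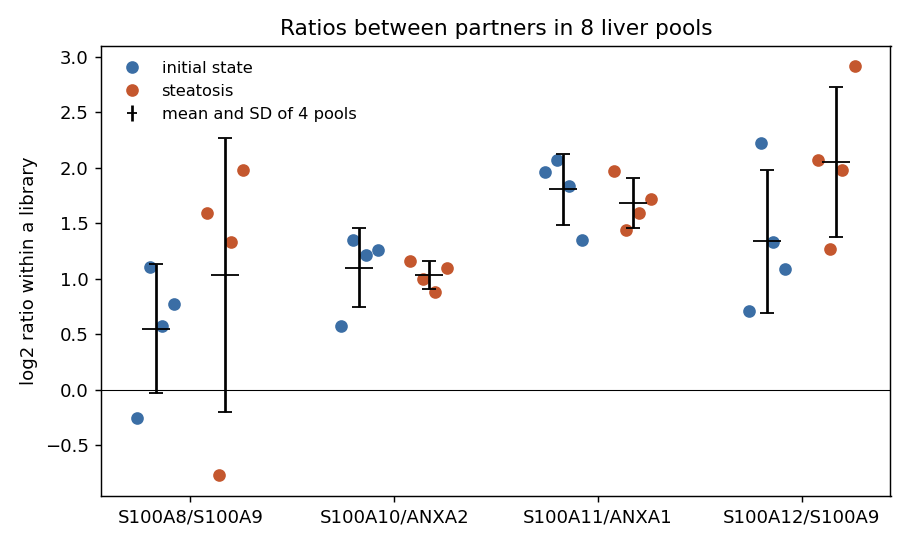
Log2 ratio of FPKM (each plus 0.1) between partners within a library, one point per pool, with the mean and SD of 4 pools per state. S100A10/ANXA2 and S100A11/ANXA1 overlap between states and vary little, and both ratios to S100A9 spread over more than 2 log2 units.

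Of the 18 listed binding partners of S100 proteins, 13 passed the expression filter, 3 were called higher and 0 lower, and 10 were higher at an adjusted p under 0.05. Over all tested genes these shares were 6.01%, 0.334% and 26.7%. The median log2 fold change of the 13 was 0.74, against 0.25 over all tested genes. Beside ANXA1 the called genes were IQGAP1, a scaffold of the actin cytoskeleton (5.14 ± 0.458 to 12.1 ± 1.19 FPKM, log2 fold change 1.22, adjusted p = 9.83e-05 from limma), and PLAT, the plasminogen activator that binds S100A10 (0.932 ± 0.578 to 2.85 ± 0.542 FPKM, log2 fold change 1.64, adjusted p = 0.00537). ANXA5, ANXA6, ANXA11 and MYH9, the myosin bound by S100A4, had no overlap between states and log2 fold changes from 0.61 to 0.99. Of all tested genes, 29.6% were higher in steatosis without overlap. With median-ratio scaling ANXA1 alone of the 3 called genes kept its call, IQGAP1 being at 0.95 and PLAT at a limma adjusted p of 0.0145. PLAT lost its call in 10 of 17 alternative fits, among them those without any single library other than pool 1 of the initial state (adjusted p 0.0108 to 0.0190 from limma). CACYBP and SUGT1, which bind S100A6, had log2 fold changes of -0.03 and 0.06 with adjusted p of 0.838 and 0.780.

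The receptors differed among themselves. AGER, the receptor named for advanced glycation end products, was at or near 0 in every library (at most 0.15 FPKM). TLR4 had FPKM values of 2.34, 3.17, 2.44 and 3.08 in initial pools 1 to 4, against 5.48, 6.01, 5.43 and 5.71 in steatosis pools 1 to 4, so all steatosis pools were above all initial ones. Its log2 fold change of 1.02, SE 0.13 and limma adjusted p = 0.000553 lies just past the limit of 1 and was 0.76 with median-ratio scaling, and the call was lost in 6 of 17 alternative fits. LY96, the co-receptor of TLR4, rose from 7.61 ± 0.817 to 18.3 ± 2.47 FPKM (log2 fold change 1.25, adjusted p = 0.000160). CD36, a scavenger receptor that also binds S100A8 and S100A9 with fatty acids, rose from 2.22 ± 2.81 to 11.2 ± 3.59 FPKM (log2 fold change 2.87, adjusted p = 0.00651). The initial value of CD36 was 6.43 FPKM in pool 1 and at most 0.89 in the others. Without that pool its log2 fold change was 3.58 with an adjusted p of 3.57e-05 from limma, whereas leaving out any of the other 7 libraries ended the call (adjusted p 0.0138 to 0.0216), as happened in 11 of 17 alternative fits in all. With median-ratio scaling LY96 (0.98) and CD36 (adjusted p 0.0162) also lost their calls. Of the 16 genes listed for reception and signalling, 12 were tested, 3 were called higher and 0 lower, and the median log2 fold change was 0.81. Of all tested genes 6.01% were called higher and 0.334% lower, and their median was 0.25. IL1B, TNF, IL6 and CXCL8, cytokines induced through these receptors, stayed at or under 1.51 FPKM in all libraries.

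Of 10 other listed genes of the S100 family or its naming series 7 had values and 5 were tested. Of these 1 was called higher and 0 lower, against 6.01% and 0.334% of all tested genes. S100A2, which was not one of the 10, had the largest fold change of all S100 genes. S100A2, known from epithelial cells and as a target of p53 family factors, lies at 96073496 to 96076825 on chromosome 4, between S100A16 and S100A4. It had FPKM values of 0.99, 0.22, 0.22 and 0.60 in initial pools 1 to 4, against 7.78, 4.25, 12.8 and 18.8 in steatosis pools 1 to 4, corresponding to an estimated 2 to 9 and 40 to 175 fragments. Every steatosis pool was above every initial pool, but the steatosis pools themselves differed several-fold. With initial pools 2 and 3 at 0.22 FPKM, S100A2 passed the filter only with the help of the steatosis pools. With 0.3 FPKM required in 7 or more libraries it was not tested. The log2 fold change, 4.18 with SE 0.51, had a limma adjusted p of 0.000448 (95% interval 3.04 to 5.31), and it was 2.84 with a pseudocount of 1. The other tested genes of this list were not called. They were S100A14 (log2 fold change -0.24, limma adjusted p = 0.740), S100B (0.06, adjusted p = 0.831), S100G (1.52, adjusted p = 0.155) and S100PBP (0.49, adjusted p = 0.0850). S100A3 (listed at 0 in 7 of 8 libraries) and S100Z were too low to be tested. S100A14 was at 3.59 FPKM in pool 1 of the initial state and at most 1.2 in all other libraries.

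Markers of the cells known to express S100A proteins were read in the same libraries. Of 13 macrophage markers 5 were called higher, namely CD68, MARCO, TREM2, GPNMB and LGALS3, against 6.01% of all tested genes. The study had already named CD68, GPNMB and LGALS3 for their rises in these libraries, and SPP1 of the cholangiocyte list below. The lists were chosen with earlier results of these data known, so such counts are no independent evidence. TREM2 was at most 0.29 FPKM in the initial pools, so it passed the filter only through the steatosis pools. With 0.3 FPKM required in 7 or more libraries 4 calls were left. The summed FPKM of all 13 was 892 to 1238 in the initial state and 2031 to 2791 in steatosis. Most of that increase was carried by GPNMB (mean 24.1 to 776 FPKM) and LGALS3 (4.33 to 275 FPKM). For galectin-3, the product of LGALS3, the paper also cites production by hepatic stellate cells in rats. The other 8, among them C1QB and C1QC (complement parts made by resident macrophages), were not called. Even so, C1QB, C1QC and VSIG4 were higher at an adjusted p under 0.05 without overlap between states. At that limit 8 of the 13 markers were higher, against 26.7% of all tested genes, and 29.6% of all tested genes were higher without overlap. The uncalled genes had log2 fold changes from -0.34 (CD5L) to 0.94 (VSIG4). Of 8 monocyte markers 0 were called by limma and 3 were higher at an adjusted p under 0.05, as were 26.7% of all tested genes. At an unadjusted p under 0.05 the count was also 3. The sums were 221 to 257 FPKM in the initial state and 194 to 253 FPKM in steatosis. FCN1, a marker of blood monocytes, was at 1.88 to 3.35 FPKM before and 2.25 to 6.09 FPKM after the diet.

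Of 9 neutrophil markers measured, only 3 passed the filter. CSF3R (log2 fold change 1.49, adjusted p = 0.00228 from limma) and MMP9 (3.71, adjusted p = 2.07e-06) were called higher, CXCR2 was not (0.18, adjusted p = 0.534), and the granule genes MPO, ELANE, LTF, MMP8 and PRTN3 did not exceed 0.42 FPKM in any library. Of these, MPO was at most 0.02 FPKM in the initial pools and 0.11 to 0.26 FPKM in steatosis. ELANE, LTF, MMP8 and PRTN3 overlapped between states. With no filter on expression 3 neutrophil markers were called. The summed FPKM of the neutrophil list was 3.01 to 5.18 in the initial state and 12.8 to 15.3 in steatosis, most of the increase being that of MMP9, which macrophages also express. For cholangiocytes 6 markers were tested, and 2 were higher at an adjusted p under 0.05. KRT19 and EPCAM had log2 fold changes of 0.18 and 0.77 with limma adjusted p of 0.827 and 0.277. SOX9 and CFTR had 1.18 and 0.81 with limma adjusted p of 0.0584 and 0.112. SPP1 and ANXA4 were called higher, and the sums were 21.0 to 36.0 and 120 to 256 FPKM. SPP1, which macrophages also express, made up most of the later sums. Of 10 stellate cell and fibroblast markers only LRAT was called, while 3 were higher and 1 lower at an adjusted p under 0.05. The sums of 74.9 to 249 and 129 to 349 FPKM overlapped. Of 7 endothelial markers 0 were called by limma, and 2 were higher at an adjusted p under 0.05. Among T, NK and B cell markers NKG7 was called higher and MS4A1 lower. Of the 8 skin and squamous markers 7 had values, 3 were tested and 0 were called by limma, 1 having an adjusted p under 0.05. That gene, SFN, was at most 0.17 FPKM in the initial pools and passed the filter only through the steatosis pools. Of the 10 hepatocyte marker rows 0 were called, with 2 higher and 1 lower at an adjusted p under 0.05. Of the muscle and stomach lists 1 gene each was tested and 0 were called. The counts of all these lists stand beside 6.01% of all tested genes called higher and 0.334% called lower. At an adjusted p under 0.05 the shares of all tested genes were 26.7% higher and 2.28% lower. The part of these cell types in the changes of S100A11, S100A6 and S100A2 was not tested.

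**Figure D4:**
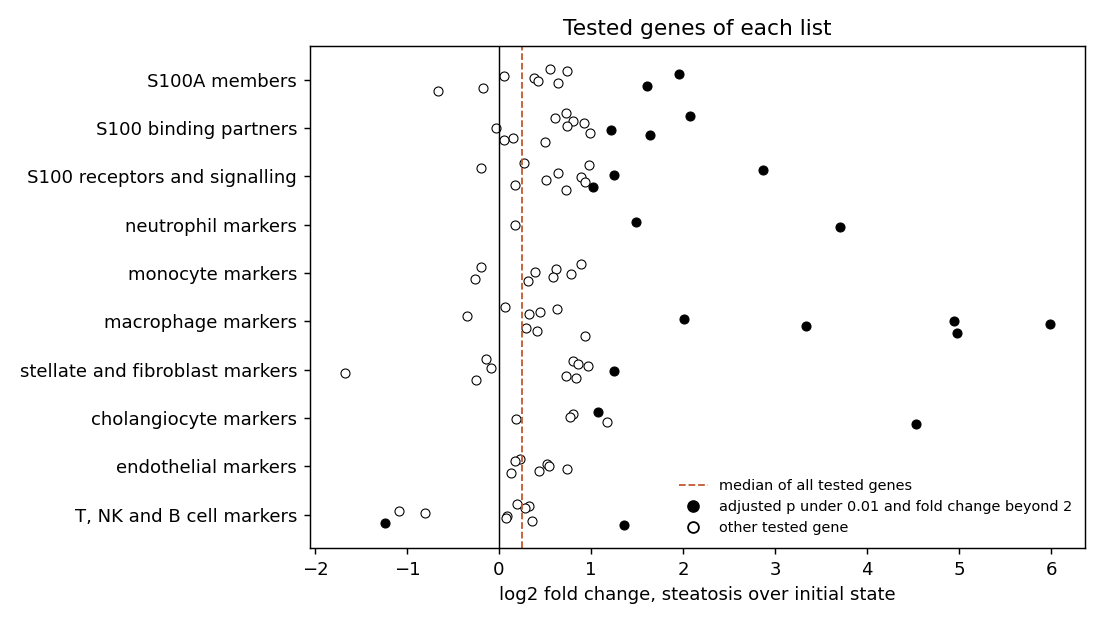
Log2 fold changes (steatosis over initial state) of the tested genes of each list, one point per gene, filled where called by limma. The dashed line is the median of all tested genes (0.25). Macrophage markers reach the largest rises, whereas monocyte and endothelial markers have no filled point.

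The genes most like S100A11 and S100A8 across libraries, after subtraction of the mean of each state, were looked up as a description over 8 libraries. For S100A11 they were TCEAL8, RAB2A, ARF1, RPA3 and COMMD3, with Pearson coefficients of 0.96 to 0.98, and for S100A8 they were ZNF277, RBMX2, C2H1orf35, KLHL22 and EIF3G, with 0.95 to 0.97. They were picked as the highest among all tested genes with an assigned name, symbols beginning with LOC being left out. S100A8 rested on an estimated 2 to 16 fragments per library, so its list is imprecise.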

How the data were processed

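Reads of 100 bp in pairs went through quality filters of the authors and were then aligned by HISAT2 2.0.4 to Sus scrofa 11.1, assembled with StringTie 1.0.4 and, after new coding transcripts were added to the reference, quantified with Bowtie2 2.2.5 and RSEM 1.2.12 (versions per the submitters' processing notes and the study's methods). The authors deposited FPKM per library, used as such, with no stated scaling between libraries. Transcript lengths were taken from other deposited tables, whose remaining columns, the same FPKM and the authors' own Poisson comparisons of single pairs of pools, were not used. Coordinates are those of RefSeq genes of Sscrofa11.1 with the same gene IDs. No sequences are given.

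limma 3.58.1 (R 4.3.3) was fitted with a mean-variance trend and the state as the only term. It was tested on simulated data first. Python 3.11.15 (pandas 2.3.3, scipy 1.17.1, matplotlib 3.10.9) served for tables and plots. For ratios the exact permutation test was two-sided, and its smallest p with 4 pools against 4 is 0.0286. Fragments per value were estimated from the steps of low FPKM in genes with 1 transcript, by which all libraries had 91.35% to 100% of the greatest depth. Since FPKM comes without a counting error, precision is given by the SD between pools.

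The members and the 14 gene lists were chosen with earlier results of these data known. Named were all members, the called genes of the S100, partner and receptor lists, ANXA1, ANXA2, AGER and TLR4, and up to 3 abundant genes of each cell list, and for S100A8 and S100A11 the 5 genes with the most similar deviations. Other list genes were named after their values were seen. Libraries of the same pool number were treated as pairs in the block. Deviations from the state means correlated at 0.16, 0.35, 0.32 and 0.25 between pools of the same number, all over 0.1. Pools of different numbers were not compared, so these values do not show that equal numbers belong together. The sources do not say that pools of the same number hold the same pigs. Alternatives were 3 other scalings, 2 filters, 2 pseudocounts, 2 limits, no trend, the block and each library left out.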

Additional observations from a re-analysis of the deposited data

Results flagged for a closer look

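Within the 4 pools of a state, the highest value stood apart from the others by more than Dixon's 95% limit in 4 of 49 groups of values examined. For normally distributed values about 1 in 20 would be flagged. That rate does not apply to S100G and S100A3, where the other pools of the state were listed at 0 and the flag was fixed. S100A10 was at 189.04 FPKM in pool 1 of steatosis, S100A14 at 3.59 FPKM in pool 1 of the initial state, S100G at 0.89 FPKM in pool 4 of the initial state, where the other initial pools were listed at 0, and S100A3 at 0.19 FPKM in pool 3 of steatosis, an estimated 2 fragments, where all other libraries were listed at 0. Without pool 1 of steatosis the log2 fold change of S100A10 was 0.67 with an adjusted p of 0.00919 from limma.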

How the results depend on the processing

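S100A11 was called higher in all 17 alternative fits, with log2 fold changes from 1.68 to 2.01. Besides S100A11, S100A6 was called in 5 of the 17 and had the same direction in the others, with adjusted p of at most 0.0284. The number of members called higher was therefore 1 in place of 2 with a common sum, the upper quartile or the median ratio as scaling, with no filter, with no trend and with an adjusted p of 0.001, and 5 with an adjusted p of 0.05 and no fold limit. With 1 library left out at a time it ranged from 1 to 2, being 2 without pool 1 of the initial state and 1 without any other. With the pool number as a block (replicate pairs) it was 2, and the block changed no call of a listed gene, while over all tested genes 785 were called higher and 57 lower. The median ratio brought the median log2 fold change of all genes from 0.25 to -0.01 and the upper quartile to 0.04, with 83.2% and 87.1% of all calls higher against 94.7%. The number of all genes called higher was 411 with the median ratio, 453 with the upper quartile and 395 with a pseudocount of 1, against 792, and that of genes called lower 83 and 67 with these scalings, against 44.

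S100A12 was at -0.15 with the upper quartile and -0.20 with the median ratio, and from -0.24 to 0.35 without single libraries. S100A8 ranged from -0.44 to 0.46 without single libraries. The S100A10/ANXA2 difference of -0.07 ranged from -0.24 to 0.0143 without single libraries and turned only without pool 2 of the initial state. With the median ratio the calls were 1 of the binding partners, 0 of the receptors, 1 of the cholangiocyte and 0 of the stellate cell markers. With the upper quartile they were 1 of the receptors and 1 of the cholangiocyte markers, with a pseudocount of 1 0 of the stellate cell and 1 of the T, NK and B cell markers, with no filter 1 of the latter, with the filter on 7 libraries 0 of the other S100 genes, with a pseudocount of 0.01 1 of the skeletal muscle markers and with no trend 1 of the skin markers. Without single libraries the calls ranged from 1 to 2 for the other S100 genes (2 without pool 4 of the initial state), 2 to 3 for binding partners, 1 to 3 for receptors (1 without pool 2 of steatosis), 1 to 2 for cholangiocyte markers (1 without pool 4 of steatosis), 1 to 2 for T, NK and B cell markers (2 without pool 1 of the initial state only) and 0 to 1 for muscle markers (1 without pool 1 or pool 2 of the initial state). The cause was not tested. S100A8, S100A9, S100A12 and S100A4 are limited by their few fragments.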
